A study of Arabidopsis thaliana with 9 samples.

Results

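The genes that flank *ZMP* (AT5G63700) on chromosome 5 of *Arabidopsis thaliana* were examined for a change in the T-DNA mutants of *ZMP*. The members were all rows of the deposited count tables with an identifier from AT5G63200 to AT5G64200, without *ZMP* itself. They were 102 genes of the 37336 counted, with 50 on the lower-coordinate side (called left here) and 52 on the higher-coordinate side (right). The rule uses identifiers alone, with no expression value.

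The study compared transcripts of *zmp-2* (T-DNA line SALK_008955), *zmp-1* (SALK_066029) and WT plants by mRNA-seq of polyA RNA, with 3 biological replicates of each genotype. All plants were of the Col-0 ecotype and grew in long days, and the labels give the material as seedlings of 12 days. The study's figure legend for *ZMP* transcripts by RNA-seq also names seedlings, whereas its methods for mRNA-seq name inflorescences. Each mutant is a single insertion line, so that an effect of the lost protein and an effect of the inserted DNA, or of a change linked to it, cannot be told apart for a neighbouring gene. Whether *zmp-1* and *zmp-2* differ from WT near the insertions, and over what distance, was the question put to these genes.

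ZMP is a nuclear protein with a PHD finger, an MDM2/SWIB domain and a Plus-3 domain that associates with RNA polymerase IV, the plant polymerase that starts the synthesis of small RNAs for DNA methylation. T-DNA is the stretch of DNA that Agrobacterium inserts into a plant genome. It can carry promoter or enhancer elements, and its integration can be accompanied by deletions or rearrangements, so that genes next to an insertion are commonly inspected for altered transcription.

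Levels are given as TMM-scaled RPM, that is, reads per 1000000 reads of the library total once this total had been multiplied by its TMM factor from edgeR. Library totals were 14390276 to 14522744 counts in *zmp-2*, 5815211 to 25182435 in *zmp-1* and 8849896 to 14561647 in WT, and a count of 3, taken as the floor, corresponds to 0.119 to 0.516 RPM over the 9 libraries. Of the markers for the labelled tissue, the summed level of 4 leaf photosynthesis genes was 3160 to 4060 RPM in *zmp-2*, 3070 to 3300 RPM in *zmp-1* and 2420 to 3660 RPM in WT. The 5 floral organ identity genes together stayed at 1.36 to 1.72 RPM in *zmp-2*, 1.25 to 3.26 RPM in *zmp-1* and 1.31 to 2.86 RPM in WT, with *AGAMOUS* at 0 in all 9 libraries. The 3 root endodermis genes (*CASP1*, *CASP2*, *CASP4*) summed to 6.94 RPM in WT replicate 2 and to 0.477 to 1.84 RPM in the other 8 libraries, so that this WT library stands apart in root transcripts.

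*ZMP* lies on the minus strand of chromosome 5 from 25493707 to 25497764 (TAIR10.1). It had 1.5, 1 and 1.32 RPM in *zmp-2*, 2.13, 3 and 2.83 RPM in *zmp-1* and 5.53, 6.75 and 7.47 RPM in WT, without overlap among the genotypes. The log2 fold change was −2.35 ± 0.26 (SE) in *zmp-2* against WT, with an edgeR adjusted p = 0.0101, and −1.35 ± 0.26 in *zmp-1* against WT, where the adjusted p over all genes was 0.155. With only the 6 libraries compared the adjusted p for *zmp-2* was 0.0558, and DESeq2 gave 0.0153 for *zmp-1*. The targeted gene thus went with the labels in every library.

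Upstream sequences of 4 members are shown because these genes carry the comparison at the locus. AT5G63680 and AT5G63710 are the nearest loci to *ZMP* on each side with enough reads for a test, and *FP3* and *SHA1* are the members whose level in every library of both mutants was above every WT library. Each run holds the 200 bases before the annotated gene start, read from RefSeq's TAIR10.1 genome and written 5′ to 3′ on the gene's own strand. Capitals mark the letters TATAAA or CCAAT on either strand.
AT5G63680, chr5:25489865-25490064, plus strand: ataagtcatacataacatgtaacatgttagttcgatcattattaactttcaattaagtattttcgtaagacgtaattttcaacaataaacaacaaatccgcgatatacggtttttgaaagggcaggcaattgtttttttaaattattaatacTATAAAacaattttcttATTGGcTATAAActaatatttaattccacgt
AT5G63710, chr5:25499178-25499377, plus strand: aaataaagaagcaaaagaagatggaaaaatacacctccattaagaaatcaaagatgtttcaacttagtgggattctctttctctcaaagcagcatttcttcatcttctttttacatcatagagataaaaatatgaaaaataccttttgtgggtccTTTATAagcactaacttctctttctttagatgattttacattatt
FP3 (AT5G63530), chr5:25432690-25432889, plus strand: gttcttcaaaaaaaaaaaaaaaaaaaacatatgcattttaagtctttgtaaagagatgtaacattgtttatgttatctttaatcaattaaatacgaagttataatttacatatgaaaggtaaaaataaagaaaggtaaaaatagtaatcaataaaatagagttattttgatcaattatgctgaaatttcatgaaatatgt
SHA1 (AT5G63780), chr5:25523627-25523826, plus strand: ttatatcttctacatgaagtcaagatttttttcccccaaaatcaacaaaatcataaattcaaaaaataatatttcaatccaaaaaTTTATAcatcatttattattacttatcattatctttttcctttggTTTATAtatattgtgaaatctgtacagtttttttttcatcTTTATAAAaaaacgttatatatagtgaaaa
These 4 windows are AT-rich, with a GC content of 25.5%, 29%, 19.5% and 20% in the order printed. TATAAA was found at 48 and 25 bases before the start of AT5G63680, and CCAAT at 31 bases on the other strand between them. *SHA1* had TATAAA at 28 bases and, on the other strand, at 30, 70 and 115 bases, with the first pair overlapping. AT5G63710 had it at 45 bases on the other strand, and *FP3* had neither motif. Of 27443 windows of the same length before protein-coding genes, 41% held TATAAA and 39.6% held CCAAT. The G-box (CACGTG), held by 5.64% of all windows, and the telo-box (AAACCCTA), held by 3.72%, were searched on both strands and were in none of the 4.

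The genes around *ZMP* showed no change that passed edgeR's test across the genome. Of the 102 members, 80 had enough counts to be tested, 37 on the left and 43 on the right. By edgeR's quasi-likelihood test 0 of the 80 were changed at an adjusted p of at most 0.05 in *zmp-2* against WT, where 32 of 18109 genes tested (0.177%) were. The counts were also 0 of 80 in *zmp-1* against WT, beside 0.0442% of all genes, and 0 of 80 in *zmp-2* against *zmp-1*, beside 0.0221%. DESeq2 called 2 members in *zmp-2* against WT, *FP3* and *SHA1*, both higher in the mutant, and 0 in *zmp-1* against WT and in *zmp-2* against *zmp-1*. It gave no adjusted p for AT5G64120. Over the 18109 genes it fitted, DESeq2 called 218 in *zmp-2* and 110 in *zmp-1*. Without a filter on low counts edgeR called 1 of 94 members in *zmp-2*, *FP3*, beside 130 of 25929 genes.

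No tested member was without reads in either mutant. All 80 tested members had reads in all 9 libraries, and 0 members with 20 or more WT reads were without reads in a mutant. The 50 genes on the left summed to 406, 346 and 394 RPM in *zmp-2*, to 365, 406 and 363 RPM in *zmp-1* and to 408, 392 and 423 RPM in WT. The 52 genes on the right summed to 1189, 1393 and 1307 RPM in *zmp-2*, to 1090, 1238 and 1353 RPM in *zmp-1* and to 1204, 1204 and 1084 RPM in WT. Both mutants overlapped WT on either side. The remaining 22 members had at most 56 reads over the 9 libraries together, and 8 of them had 0. Of the tested members 27 overlap another gene in the annotation, *PSAN* and *LNK1* among them, and 53 do not. Of the 22, only *NAC103* had 20 or more reads in WT, 24 in all, with 11 in *zmp-2* and 4 in *zmp-1*. It had 0.341, 0.077 and 0.331 RPM in *zmp-2*, 0.126, 0.177 and 0 RPM in *zmp-1* and 0.191, 0.655 and 1.21 RPM in WT, and was not tested.

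At an unadjusted p under 0.05, 6 of the 80 tested members (7.5%) were past the threshold in *zmp-2* against WT, 2 higher (*FP3*, *SHA1*) and 4 lower (*CDKG1*, AT5G63490, AT5G63680, AT5G64100), while 12.1% of all genes tested were, 5.89% higher and 6.23% lower. In *zmp-1* against WT 8 members (10%) were, 3 higher (*FP3*, *SHA1*, *SNRK2.5*) and 5 lower (AT5G63490, AT5G63680, AT5G64090, AT5G64100, AT5G64120), beside 9.16% of all genes, 3.9% higher and 5.26% lower. Between the mutants, *zmp-2* against *zmp-1*, 2 members (2.5%), *FP3* and *CDKG1*, were, beside 4.36%. The 3 libraries of one genotype stood apart from the 3 of the other for 11 members in *zmp-2* against WT (13.8%, beside 16.2% of all genes), for 8 in *zmp-1* against WT (10%, beside 12.6%) and for 7 in *zmp-2* against *zmp-1* (8.75%, beside 11.9%). The shares of members were below those of all genes, except for that in *zmp-1* against WT at an unadjusted p. The counts at an unadjusted p depended on single libraries. In *zmp-2* against WT 12 of 81 members (14.8%) were past it without WT replicate 1, beside 14.3% of all genes in that fit. Without WT replicate 3, 5 of 81 (6.17%) were in *zmp-1* against WT, beside 5.78%. In *zmp-2* against *zmp-1* there were 0 without *zmp-1* replicate 2 (3.24% of all genes) or without *zmp-2* replicate 3 (2.91%), 1 without *zmp-1* replicate 3 (4.12%) and 4 without *zmp-2* replicate 1, which is 5% of the members beside 4.02%.

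**Figure D1:**
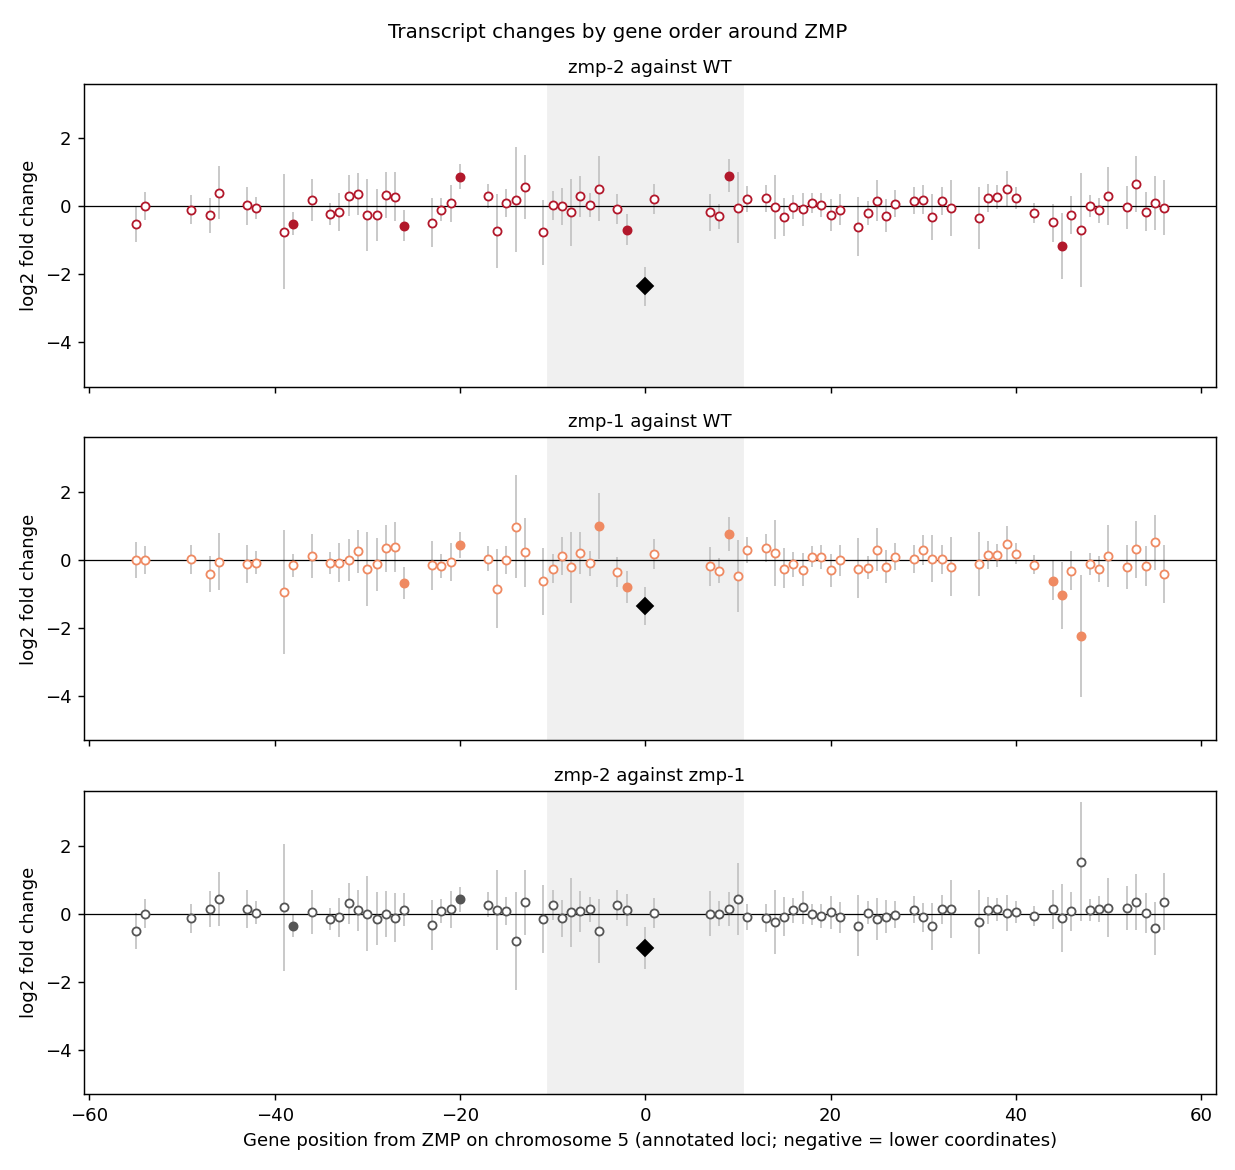
Log2 fold change of each tested member (circles) and of *ZMP* (black diamond) against gene position from *ZMP* in annotated loci, for *zmp-2* against WT, *zmp-1* against WT and *zmp-2* against *zmp-1*, with 95% intervals as bars; filled circles have an unadjusted p under 0.05 and the shaded band covers 10 positions on each side. *ZMP* stands at −2.35, −1.35 and −1, while filled circles lie on both sides of 0 and at positions from 2 to 47.

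The fold changes were arranged by gene order to look for a change close to *ZMP*. Position counts annotated loci from the *ZMP* gene, so that position 1 is the next locus; the insertion sites themselves were not used. The median log2 fold change of the members tested was −0.03 in *zmp-2* against WT, with 37 higher and 43 lower, where the median of all genes tested was −0.02 and that of the rest of chromosome 5 was −0.03. In *zmp-1* against WT it was −0.08, with 33 higher and 47 lower, where both wider medians were −0.01. In *zmp-2* against *zmp-1* it was 0.04, with 50 higher and 30 lower, beside 0 over all genes. For the 13 members tested within 10 positions the median was −0.01 in *zmp-2* against WT, −0.18 in *zmp-1* against WT and 0.08 in *zmp-2* against *zmp-1*, where 11 were higher and 2 lower. An unadjusted p under 0.05 was found for 2 of these 13 (15.4%) in *zmp-2* against WT, beside 12.1% of all genes, and for 3 of 13 (23.1%) in *zmp-1* against WT, beside 9.16%. In *zmp-2* against *zmp-1* it was 0 of 13, beside 4.36%. The genes were AT5G63680 and *SHA1* in both mutants and *SNRK2.5* in *zmp-1*. None of the 13 passed the adjusted threshold with edgeR. DESeq2, which called 218 of 18109 genes in *zmp-2*, called *SHA1* there.

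The size of the changes, whatever their direction, was set beside that of other genes. Within 10 positions the median absolute log2 fold change was 0.18 in *zmp-2* against WT, beside 0.23 over all members and 0.23 over all genes tested. In *zmp-1* against WT it was 0.25, beside 0.21 and 0.22. It was 0.13 in *zmp-2* against *zmp-1*, beside 0.13 and 0.18. Leaving out WT replicate 1 raised the value for *zmp-2* against WT to 0.31, and scaling by library size alone gave 0.38 for *zmp-1* against WT. By side and distance, the *zmp-2* medians ran from −0.11 (left, over 25 positions, 19 genes) to 0.08 (left, 11 to 25 positions, 10 genes), and the *zmp-1* medians from −0.18 (right, 1 to 10 positions, 5 genes) to −0.01 (right, 11 to 25 positions, 13 genes). In *zmp-1* the nearest bins on both sides had the lowest medians, with −0.16 on the left (8 genes), and in *zmp-2* they had 0.01 on the left and −0.05 on the right.

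**Figure D2:**
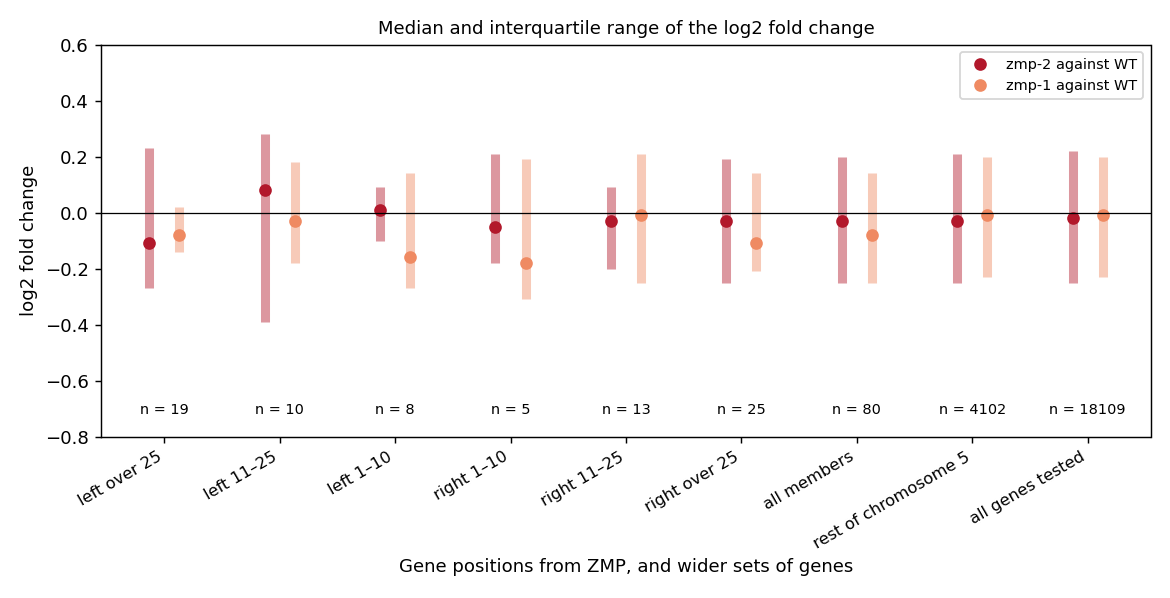
Median (point) and interquartile range (bar) of the log2 fold change in *zmp-2* against WT and *zmp-1* against WT, for members in bins of gene position on each side of *ZMP*, for all members, for the rest of chromosome 5 and for all genes tested. Medians lie between −0.18 and 0.08, and the bars of all bins cross 0.

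The precision of the single genes sets what a local effect could be. For 54 of the 80 tested members (67.5%) the 95% interval of the *zmp-2* fold change stayed within 2-fold in either direction, and 54 did so in *zmp-1*. This held for 65.7% of all genes tested in *zmp-2* and 65.1% in *zmp-1*. Within 10 positions it held for 8 of 13 (61.5%) in each mutant. The 5 others, the same in both mutants, were AT5G63680, AT5G63625, *SNRK2.5*, *SHA1* and *NAC102*. The median half-width of the interval was 0.53 in *zmp-2* and 0.54 in *zmp-1* on the log2 scale. Just outside the members, 2 of 30 genes tested among the next 50 loci on the left and 4 of 34 on the right had an unadjusted p under 0.05 in *zmp-2* against WT, with a smallest edgeR adjusted p of 0.196 on the left and 0.0274 on the right. In *zmp-1* against WT these were 1 of 30 and 3 of 34, with a smallest adjusted p of 0.344 on the left and 0.322 on the right. Over all genes the shares were 12.1% in *zmp-2* and 9.16% in *zmp-1*. On the right in *zmp-2*, the smallest edgeR adjusted p of 0.0274 was under the threshold of 0.05, which 0.177% of all genes tested passed.

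Of the loci next to *ZMP* on the left, AT5G63680 was lower in both mutants, short of the adjusted threshold. AT5G63690, a gene for a nucleic acid-binding OB-fold-like protein, lies on the same strand as *ZMP* and begins 7 bp beyond its 3′ end. It had only 2 to 5 reads in each library of *zmp-2*, of *zmp-1* and of WT, too few for a test. AT5G63680 encodes a protein of the pyruvate kinase family, the enzymes of the last step of glycolysis, and lies on the plus strand from 25490065 to 25492763, 943 bp from *ZMP* with its 3′ end towards it. Its levels were 14.5, 14 and 16.5 RPM in *zmp-2*, 11.8, 15.4 and 15 RPM in *zmp-1* and 17.1, 24.6 and 31 RPM in WT. All 6 mutant libraries were below all 3 WT libraries, and WT replicate 1 was close to the highest mutant value. The log2 fold change was −0.69 ± 0.21 in *zmp-2* (edgeR adjusted p = 0.246) and −0.80 ± 0.21 in *zmp-1* (adjusted p = 0.331), so that neither difference passed the test over all genes. Over the alternatives the adjusted p lay between 0.0672 and 0.518 in *zmp-2* and between 0.0639 and 0.763 in *zmp-1*. Between *zmp-2* and *zmp-1* the difference was 0.11 ± 0.22.

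*SPT42*, at position 3, encodes a homolog of the transcription elongation factor Spt4. It had 8.59, 6.39 and 7.54 RPM in *zmp-2*, 5.27, 7.77 and 6.09 RPM in *zmp-1* and 7.62, 7.93 and 8.27 RPM in WT. The groups overlapped, with log2 fold changes of −0.08 ± 0.20 (*zmp-2*) and −0.34 ± 0.20 (*zmp-1*). *PDF2.5*, a plant defensin gene, had 0.273 to 0.331 RPM in *zmp-2*, 0 to 0.53 in *zmp-1* and 0.0953 to 0.852 in WT and was not tested. *SNRK2.5*, at position 5, encodes a kinase of the family that acts in osmotic stress signalling. It had 2.05, 2.62 and 2.45 RPM in *zmp-2*, 2.39, 5.83 and 2.27 RPM in *zmp-1* and 1.71, 2.36 and 0.807 RPM in WT. One library, *zmp-1* replicate 2, was far above the rest. The log2 fold change was 0.51 ± 0.44 in *zmp-2* and 1.00 ± 0.44 in *zmp-1* (edgeR adjusted p = 0.527), and without *zmp-1* replicate 2 the *zmp-1* value was 0.49. The *zmp-2* value was 0.90 without WT replicate 2 and 0.21 without WT replicate 3. Its gene overlaps AT5G63640 on the opposite strand, and the kit does not mark strand, so reads in the overlap cannot be assigned to one gene.

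On the right, the nearest locus is AT5G63710, a leucine-rich repeat protein kinase gene on the plus strand from 25499378 to 25503023. It starts 1613 bp from the 5′ end of *ZMP* and runs away from it. Its levels were 13.6, 20.9 and 15.2 RPM in *zmp-2*, 15.8, 16.1 and 17 RPM in *zmp-1* and 12.9, 17.7 and 12.1 RPM in WT. The groups overlapped. The log2 fold changes were 0.21 ± 0.20 (*zmp-2*) and 0.19 ± 0.20 (*zmp-1*), with 95% intervals of −0.23 to 0.65 in *zmp-2* and −0.26 to 0.63 in *zmp-1*, which leave out a change of 2-fold. The next locus, the miRNA gene *MIR166G*, has no row among the counts. *KPL* (*KOKOPELLI*), a gene known for its role in pollen, and *ARI14*, which encodes an ARIADNE-type protein, had 0 reads in all 9 libraries. AT5G63740, a RING/U-box gene, had 1 read in all.

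**Figure D3:**
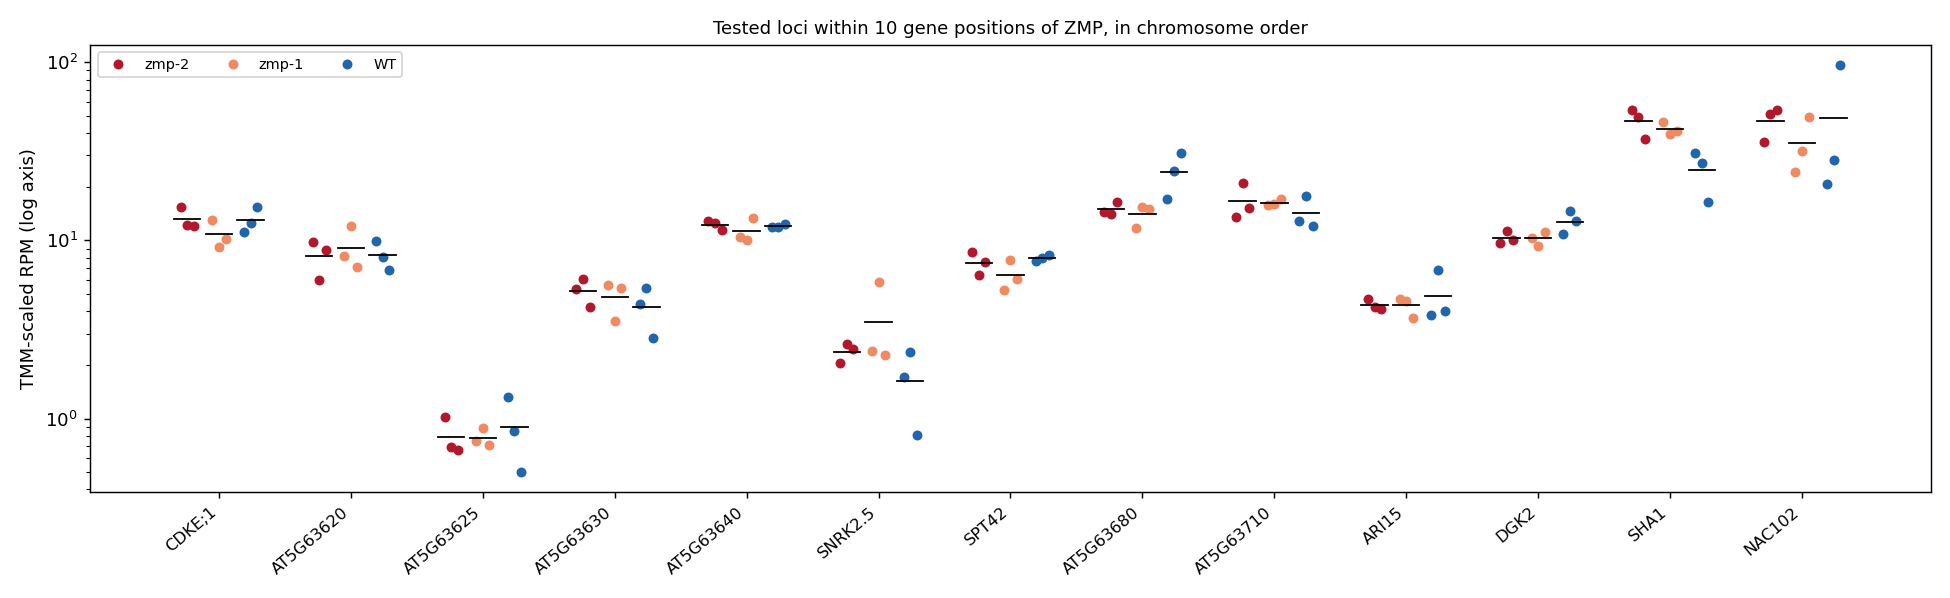
TMM-scaled RPM on a log axis of the 13 tested members within 10 gene positions of *ZMP*, in chromosome order, with points for the 3 libraries each of *zmp-2*, *zmp-1* and WT from left to right and a line at the mean. The mutants lie below WT in every library for AT5G63680 and above WT for *SHA1*, while for the other members at least one mutant overlaps WT.

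*FP3* and *SHA1* were higher in every library of both mutants than in any WT library. *FP3*, at position 20 on the left and 57.9 kb from *ZMP*, encodes farnesylated protein 3, of a plant family with heavy-metal-associated domains. It had 16.9, 21.3 and 19.2 RPM in *zmp-2*, 16.4, 12.7 and 13 RPM in *zmp-1* and 10.3, 11.6 and 9.58 RPM in WT. The 3 genotypes did not overlap. In log2 terms the difference from WT was 0.86 ± 0.17 in *zmp-2* (edgeR adjusted p = 0.0889) and 0.43 ± 0.17 in *zmp-1* (adjusted p = 0.476). DESeq2 gave it an adjusted p of 0.0081 in *zmp-2*, and over all alternatives the adjusted p ran from 0.0081 to 0.333. In *zmp-2* against *zmp-1* it was 0.43 ± 0.17 higher (edgeR adjusted p = 1). Its gene overlaps no other.

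*SHA1* (*SHOOT APICAL MERISTEM ARREST 1*), at position 9 on the right and 26.1 kb from *ZMP*, encodes a RING-type zinc finger protein named for its effect on the shoot meristem. It had 54, 49 and 37.2 RPM in *zmp-2*, 46, 39.4 and 41.3 RPM in *zmp-1* and 31.1, 27.3 and 16.5 RPM in WT. WT replicate 3 was the lowest of all. On the log2 scale the difference from WT was 0.90 ± 0.23 in *zmp-2* (edgeR adjusted p = 0.168) and 0.76 ± 0.23 in *zmp-1* (adjusted p = 0.356). DESeq2 gave an adjusted p of 0.0252 (*zmp-2*) and 0.141 (*zmp-1*), and over the alternatives the adjusted p ran from 0.0252 to 0.416 in *zmp-2* and from 0.141 to 0.765 in *zmp-1*. The 3′ end of *SHA1* overlaps that of *NAC102* on the opposite strand. *NAC102*, a NAC transcription factor gene induced by stress, had 35.5, 51.5 and 53.7 RPM in *zmp-2*, 24.1, 31.8 and 49.6 RPM in *zmp-1* and 20.8, 28.2 and 96.6 RPM in WT. Its highest value was in WT replicate 3, where *SHA1* was lowest.

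Members that were lower in the mutants lay at several distances. AT5G63490, at position 26 on the left, encodes a protein with CBS and PB1 domains. It had 6.14, 7.55 and 7.74 RPM in *zmp-2*, 7.57, 5.83 and 5.95 RPM in *zmp-1* and 9.24, 9.17 and 13.4 RPM in WT. No mutant library reached WT. The log2 fold change was −0.57 ± 0.21 in *zmp-2* (edgeR adjusted p = 0.316) and −0.69 ± 0.22 in *zmp-1* (adjusted p = 0.37). Without WT replicate 3 the value in *zmp-2* was −0.36. The gene overlaps AT5G63480 on the opposite strand. *CDKG1* (AT5G63370), a cyclin-dependent kinase gene at position 38, had 44.7, 37.1 and 45.2 RPM in *zmp-2*, 51.6, 55.6 and 55.5 RPM in *zmp-1* and 62.6, 52.8 and 66.2 RPM in WT. Its *zmp-2* libraries were below all others, whereas *zmp-1* overlapped WT. In log2 terms *zmp-2* differed from WT by −0.51 ± 0.15 (edgeR adjusted p = 0.234) and *zmp-1* by −0.16 ± 0.15. The difference was −0.36 ± 0.15 in *zmp-2* against *zmp-1* (edgeR adjusted p = 1).

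AT5G64090, annotated as hyccin and at position 44 on the right, had 4.37, 3.16 and 5.43 RPM in *zmp-2*, 4.98, 3.53 and 2.97 RPM in *zmp-1* and 6.29, 6.09 and 5.75 RPM in WT. Both mutants were below WT in every library. Its log2 fold change was −0.48 ± 0.25 in *zmp-2* (adjusted p = 0.477) and −0.61 ± 0.26 in *zmp-1* (edgeR adjusted p = 0.504). Without *zmp-2* replicate 2 the *zmp-2* value was −0.30. With AT5G63280, which encodes a C2H2-like zinc finger protein, and *PI-4KBETA1*, a phosphatidylinositol 4-kinase gene, and with AT5G63490 and AT5G63680, it made 5 of the 80 members (6.25%) with both mutants below WT in every library, where 2.28% of all genes tested were. *FP3* and *SHA1*, above WT in this way, were 2.5%, beside 2.97% of all genes. With one mutant above and the other below there were 0 members, beside 0.0994%. Both mutants were set against the same 3 WT libraries, and the difference between these shares was not tested.

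The 3 class III peroxidase genes lie in tandem at positions 45 to 47 on the right. These enzymes act in the cell wall. All 3 had negative fold changes in both mutants, with median log2 fold changes of −0.71 (*zmp-2*) and −1.04 (*zmp-1*), and 0 of 3 passed the adjusted test. *PRX71* (AT5G64120) had 15.1, 19.2 and 145 RPM in *zmp-2*, 14.8, 33.2 and 15 RPM in *zmp-1* and 53.3, 186 and 52.6 RPM in WT. A single library was high in *zmp-2* and a single one in WT. Its log2 fold change was −0.71 ± 0.77 in *zmp-2* and −2.24 ± 0.82 in *zmp-1* (edgeR adjusted p = 0.437). Without WT replicate 2 these values were 0.18 and −1.36, and without *zmp-2* replicate 3 the *zmp-2* value was −2.51. AT5G64100 had 6.62, 8.47 and 18.3 RPM in *zmp-2*, 10.6, 15.4 and 11 RPM in *zmp-1* and 11.6, 41.8 and 21.1 RPM in WT, and both mutants overlapped WT. Its log2 fold change was −1.17 ± 0.44 in *zmp-2* (edgeR adjusted p = 0.326) and −1.04 ± 0.45 in *zmp-1* (adjusted p = 0.513), and −0.55 and −0.43 without WT replicate 2. AT5G64110 had 5.93 to 9.32 RPM in *zmp-2*, 5.47 to 9.06 in *zmp-1* and 7.26 to 12.2 in WT. WT replicate 2, the highest library for all 3 genes, was also the one with the high root endodermis markers (6.94 RPM), and *zmp-2* replicate 3 had 0.926 RPM of these. The part of root tissue in the difference was not tested, and in whole plants fewer cells of a type and less RNA per cell cannot be told apart.

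**Figure D4:**
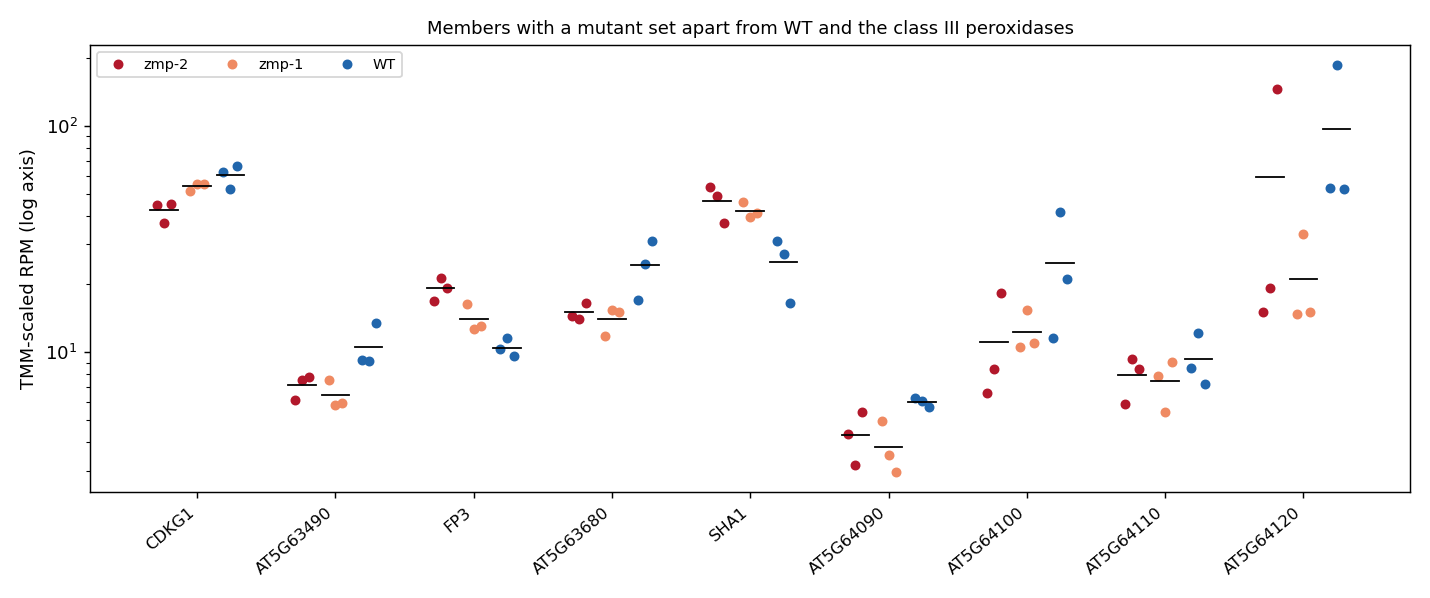
TMM-scaled RPM on a log axis of the members with an unadjusted p under 0.05 and a mutant set apart from WT, and of the 3 peroxidase genes, with the 3 libraries each of *zmp-2*, *zmp-1* and WT from left to right and a line at the mean. *FP3* and *SHA1* lie above WT in both mutants, and single libraries at 145 RPM (*zmp-2*) and 186 RPM (WT) stand far above the others of their genotype for AT5G64120.

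None of the other groups had a member past the adjusted test or an unadjusted p under 0.05 in the comparisons with WT. The flavonol synthase-like tandem genes, relatives of the enzyme that makes flavonols, lie at positions 11 to 14 on the left. Of 4, 3 were tested, with log2 fold changes from −0.77 to 0.56 in *zmp-2* and from −0.63 to 0.98 in *zmp-1*. *FLS5* had 8.12, 6.62 and 7.08 RPM in *zmp-2*, 6.49, 11.5 and 6.65 RPM in *zmp-1* and 5.72, 23.5 and 7.47 RPM in WT, with the high value again in WT replicate 2, the library with 6.94 RPM of root endodermis markers. Of the 3 ARIADNE genes, of the RING-between-RING type of ubiquitin ligase, only *ARI15* was tested, with 4.71, 4.24 and 4.1 RPM in *zmp-2*, 4.69, 4.59 and 3.68 RPM in *zmp-1* and 3.81, 6.81 and 4.04 RPM in WT, and log2 fold changes of −0.18 in both mutants.

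The beta-galactosidase genes *MUM2*, known for seed mucilage, and *BGAL10*, known for xyloglucan, were at high levels. *MUM2* had 69.1, 89.1 and 72.2 RPM in *zmp-2*, 84.4, 71.7 and 88.9 RPM in *zmp-1* and 73.1, 71.5 and 54.7 RPM in WT. The groups overlapped. Its log2 fold changes were 0.21 ± 0.17 (*zmp-2*) and 0.30 ± 0.18 (*zmp-1*), and those of *BGAL10* 0.23 ± 0.18 (*zmp-2*) and 0.35 ± 0.19 (*zmp-1*). Of the SAL1 family tandem, whose main member *SAL1* encodes a phosphatase of chloroplast retrograde signalling, 2 of 3 were tested, with a median log2 fold change of 0.05 (*zmp-2*) and −0.09 (*zmp-1*). *SAL2* had 0 reads. Of the 2 NAC genes only *NAC102* was tested.

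Of 10 genes for transcription, DNA and chromatin functions 9 were tested, among them *CDKE;1* of the Mediator kinase module, *TOP3A* (topoisomerase 3alpha) and *CHR24*. Their log2 fold changes were positive for 7 and negative for 2 in *zmp-2* against WT (median 0.16). In *zmp-1* against WT 6 were positive and 3 negative (median 0.04). All 3 light and clock genes had positive values, with median log2 fold changes of 0.50 (*zmp-2*) and 0.31 (*zmp-1*). *LNK1* (AT5G64170), a gene regulated by light and the clock, had 15.5, 41 and 22.2 RPM in *zmp-2*, 18.2, 14.5 and 29.6 RPM in *zmp-1* and 11.5, 14.8 and 24.1 RPM in WT, so that replicates differed within each genotype by more than the genotypes did. *UVR8*, which encodes the UV-B photoreceptor, had 52.7, 54.2 and 50.9 RPM in *zmp-2*, 50.1, 54.4 and 54.2 RPM in *zmp-1* and 53.6, 50.7 and 43.4 RPM in WT.

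By level per kb of exon in WT, the highest members were *PSAN* with 328 RPM per kb, *PRX71* with 72.4 and AT5G64130 with 33.8. *PSAN* encodes a subunit of photosystem I and had 430, 579 and 408 RPM in *zmp-2*, 351, 490 and 557 RPM in *zmp-1* and 430, 283 and 289 RPM in WT. The groups overlapped through WT replicate 1. Log2 fold changes were 0.50 ± 0.24 in *zmp-2* (edgeR adjusted p = 0.429) and 0.48 ± 0.24 in *zmp-1* (adjusted p = 0.562). AT5G64130, which encodes a cAMP-regulated phosphoprotein 19-related protein, had 41.1, 34.6 and 34.6 RPM in *zmp-2*, 32.5, 32.3 and 37.5 RPM in *zmp-1* and 33, 36.6 and 40.5 RPM in WT, with log2 fold changes of 0 ± 0.15 (*zmp-2*) and −0.11 ± 0.15 (*zmp-1*).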

How the data were processed

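The deposited values were raw counts per gene, from the authors' alignment of trimmed (Trim Galore) paired-end reads to TAIR10 with STAR 2.5.3a and the Araport11 annotation, for 3 libraries each of zmp-2, zmp-1 and WT. The authors' library kit does not mark strand, and the strand column deposited is not given in the sources used here. Depth was 5815211 to 25182435 counts per library. Of these, 55.1% to 66.3% fell on chloroplast genes, which are also part of the library totals behind RPM. Precision is limited by 3 replicates a group, and the p-values set genotype differences against the spread between these libraries.

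Gene positions, strands and names were taken from RefSeq's TAIR10.1 annotation by locus tag. Position counts its annotated loci, including 9 in the span that were no members, 2 of them without a row. All 102 members matched. None had a near-identical copy (95% identity over 50% of the gene, blastn), and 31 overlapped another gene.

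Counts were fitted in R 4.3.3 with edgeR 4.0.16 (filterByExpr by genotype, TMM, glmQLFit and glmQLFTest, 1 coefficient per genotype, all 9 libraries, two-sided). P-values were Benjamini-Hochberg adjusted over 18109 genes, with a threshold of 0.05. The procedure was run on counts simulated from the fitted dispersion trend, with changes added for some genes. These counts held no outlying library and no deviation shared between replicates, so the run gives no error rate for these data. Alternatives were DESeq2 1.42.0, upper-quartile factors, library size alone, no filter, at least 10 counts in every library, no organelle genes, the 6 libraries compared, a replicate block, an adjusted p of at most 0.1, and each library left out.

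Replicates with the same number deviated together in zmp-2 and WT (correlations of deviations from the group means, across genes, of 0.28, 0.21 and 0.13). The main fit did not pair them, and the replicate number entered only as the block named among the alternatives. The correlations were 0.06, 0.04 and 0.05 in zmp-1 and WT and 0.14, −0.08 and −0.09 in zmp-2 and zmp-1.

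Members, gene groups and tests were chosen with earlier results of these data known. Named genes were the 5 loci nearest ZMP on each side, any member past the adjusted test, up to 4 members in each direction per mutant with the largest fold change at an unadjusted p under 0.05 and no overlap with WT, the 3 highest in WT per kb of exon, and members of the groups described.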

Additional observations from a re-analysis of the deposited data

How the results depend on the processing

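Each comparison was recomputed under 17 alternatives, and the count at the adjusted threshold also at 0.1. No member was changed in zmp-1 against WT or in zmp-2 against zmp-1 under any of them. In zmp-2 against WT the number changed was 2 with DESeq2, beside 218 of 18109 genes. Without a filter on low counts it was 1 of 94, beside 130 of 25929 genes. At an edgeR adjusted p of at most 0.1 it was 1, FP3, which ranked 60 by p among the 18109 genes tested. The number of all genes past 0.1 was not counted. Under the other alternatives 0 members were changed, including every fit without 1 library (range 0 to 0). The causes of these differences were not tested.

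Without a filter, 10 of 94 members (10.6%) had an unadjusted p under 0.05 in zmp-2 against WT, beside 10.3% of all genes. With 1 library left out 6 to 12 did (7.41% to 14.8%), where the shares of all genes were 8.81% to 14.3%. In zmp-1 against WT leaving out a library gave 5 to 11 (6.17% to 13.6%), beside 5.78% to 14.4% of all genes. In zmp-2 against zmp-1 the number was 1 with library size alone (1.25%, beside 3.96% of all genes). It was 4 with only the 6 libraries compared (5.13%, beside 6.33%), and 0 to 4 with a library left out (0% to 5%, beside 2.91% to 5.31%).

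Library size alone moved the median of all genes by −0.09 for zmp-2 and −0.11 for zmp-1, and brought the members' medians to −0.11 and −0.19. Upper-quartile factors gave 0.01 in zmp-2. Without 1 library the members' median was −0.06 to 0.02 in zmp-2 against WT, −0.1 to −0.02 in zmp-1 against WT and 0 to 0.07 in zmp-2 against zmp-1. Within 10 positions the median absolute fold change was 0.38 with library size alone and 0.31 without a filter in zmp-1 against WT. Without 1 library it was 0.15 to 0.31 in zmp-2, 0.25 to 0.35 in zmp-1 and 0.1 to 0.19 between the mutants.

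Signs changed for values near 0 or set by 1 library. AT5G64130 in zmp-2 against WT was 0 with DESeq2 and without organelle genes, −0.09 with library size alone and −0.08 to 0.08 with a library left out. With a library left out the log2 fold change ran from −0.19 to 0.02 for SPT42, −2.51 to 0.18 for AT5G64120 and −0.39 to 0 for AT5G64110 in zmp-2 against WT. It ran from 0.21 to 0.9 for SNRK2.5 and −0.68 to −0.3 for AT5G64090 in zmp-2 against WT, without a change of sign. It ran from −0.02 to 0.65 for LNK1 (AT5G64170) in zmp-1 against WT. Between the mutants the ranges were −0.75 to 0.02 for SNRK2.5, −0.01 to 0.18 for AT5G63680, −0.17 to 0.15 for AT5G63710, −0.27 to 2.01 for AT5G64120, −0.07 to 0.42 for AT5G64090 and −0.15 to 0.17 for PSAN.

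With the replicate number as a block, 6 of 80 members (7.5%) in zmp-2 against WT had an unadjusted p under 0.05, beside 12.4% of all genes. AT5G63710 was −0.01 between the mutants, and 0 members were changed in any comparison. The block changed no other call. Over all genes it called 32 for zmp-2 against WT and 12 for zmp-1 against WT. For both mutants every library correlated best with the WT library of its own number. These correlations were 0.28, 0.21 and 0.13 for zmp-2, and only 0.06, 0.04 and 0.05 for zmp-1.

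Over all genes the numbers changed, 32 for zmp-2 against WT and 8 for zmp-1 against WT, were 218 and 110 with DESeq2, 130 and 51 without a filter, 1 and 5 with only the 6 libraries compared, 20 and 8 with library size alone, and 29 and 5 with at least 10 counts in every library. They lay between 5 and 110 and between 0 and 53 with a library left out. For ZMP the 6 libraries compared alone gave −2.35 in zmp-2 with an edgeR adjusted p of 0.0558, and DESeq2 gave an adjusted p of 0.0153 in zmp-1 against WT.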
